A study of Arabidopsis thaliana with 9 samples.

Results

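The comparison described here sets 3 RNA-Seq libraries labelled OE APOLO against 3 WT libraries, 6 of the 9 libraries of the series. OE APOLO is a single Arabidopsis line in which the long noncoding RNA (lncRNA) APOLO is placed under the constitutive viral 35S promoter, in the Columbia background. WT is the untransformed Columbia accession. All seedlings were 4 days old, were grown at 23 °C and were extracted whole, so that roots, hypocotyls and cotyledons are mixed. Only gene rows were used, and 20021 genes had enough counts to be tested. The question was which pathways and gene families differed between both genotypes.

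APOLO is transcribed next to PID, the gene of a kinase that controls auxin transport, and has been described as a regulator of auxin-responsive genes. Auxin induces SAUR, Aux/IAA and GH3 genes, and it promotes elongation by loosening the wall through expansins and xyloglucan endotransglucosylase/hydrolases (XTH). Growing shoot organs are also covered by a cuticle of cutin and very-long-chain waxes, which the epidermis makes as its surface expands, while suberin, a related polyester, seals the root endodermis.

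The label was examined first. APOLO (AT2G34655) had 1, 3 and 3 counts in the OE APOLO libraries, against 2, 2 and 2 in WT, none of them above a floor of 3 counts. The pooled ratio was 1.25 after allowance for depth, and its exact binomial 95% interval, which covers counting error only, ran from 0.36 to 4.51 (p = 0.785 in the exact test, two-sided). Excess APOLO was thus not detected, and the group is called "the libraries labelled OE APOLO" for that reason. PID beside it had a log2 fold change of 0.06 (FDR 0.915, edgeR). Of the tested genes around the locus, ABCC2 was lower (-0.41, FDR 0.00875) and AT2G34620, beyond PID, was higher (0.65, FDR 0.000619). The ABCC2 call was lost without each library except OE APOLO A (FDR 0.019 to 0.0494), and the AT2G34620 call was kept in every alternative run, other thresholds aside.

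Gene counts per library ranged from 11887311 to 14078290, and 3 counts corresponded to 0.206 to 0.259 CPM (counts scaled to library size with TMM factors). Organelle-encoded genes held 0.353% of the counts of OE APOLO A, but 0.147% and 0.138% in OE APOLO B and C, against 0.285% to 0.426% in WT. On the second principal component of all 9 libraries (21% of the variance), OE APOLO A lay at -7.346, and B and C at -22.56 and -27.43. The WT libraries lay at 21.8 (A), 20.21 (B) and 16.17 (C), so that OE APOLO A was the nearest of its group to WT there. OE APOLO A also stood apart from B and C on the third principal component (-23.91, against 6.385 and 7.912). On the same component WT B lay at -8.286, against 10.85 in WT A and 9.94 in WT C. By a chi-square per gene of their counts, WT A and WT C were the closest replicates (1.75, against 4.47 to 7 for other pairs). Summed shoot markers ranged from 73300 to 83700 CPM in the libraries labelled OE APOLO and from 65600 to 80400 CPM in WT, with 14 of 14 tested. Summed root markers were 298, 297 and 402 CPM in libraries A, B and C labelled OE APOLO, against 282 to 297 CPM in WT (19 of 21 tested, 2 higher, 0 lower). The 2 higher ones were MRN1 and THAS1, which are also described below with the root terpene genes. Summed senescence markers were 35.6, 28.9 and 30.4 CPM in libraries A, B and C labelled OE APOLO, against 39.0, 39.7 and 37.8 CPM in WT, without overlap (3 of 5 tested, 0 called). Summed seed markers ranged from 5.09 (C) to 43.8 CPM (A) in the libraries labelled OE APOLO and from 7.55 to 19.1 CPM in WT (4 of 12 tested, 0 called). Of the flower and pollen markers, 2 of 13 and 1 of 10 were tested, and 3 and 4 of them had no count in any library. In whole seedlings, a change in the share of a cell type and a change in the RNA per cell cannot be told apart.

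Genes are described as called, higher or lower where the false discovery rate (FDR) was under 0.01, by edgeR's quasi-likelihood test with Benjamini-Hochberg adjustment. Relative to WT, 854 genes (4.27% of those tested) were higher in the libraries labelled OE APOLO and 455 (2.27%) were lower, together 1309 (6.54%). For 31.0% of all tested genes the 3 libraries of one group lay wholly on one side of the other, so that such a separation alone is common here. The median log2 fold change over all tested genes was -0.001. Most changes were small: the absolute log2 fold change of the called genes had a median of 0.59, and 414 of the 854 higher genes had a log2 fold change under 0.58. The count depended on single libraries: it was 639 without WT A, 731 without WT C and 865 without OE APOLO B, and 1706 without OE APOLO A. Among 50 gene lists with 1263 tested members, 226 genes were called, and the share differed widely from list to list. These lists were chosen with earlier results of these data known, so their shares are a description only.

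**Figure D1:**
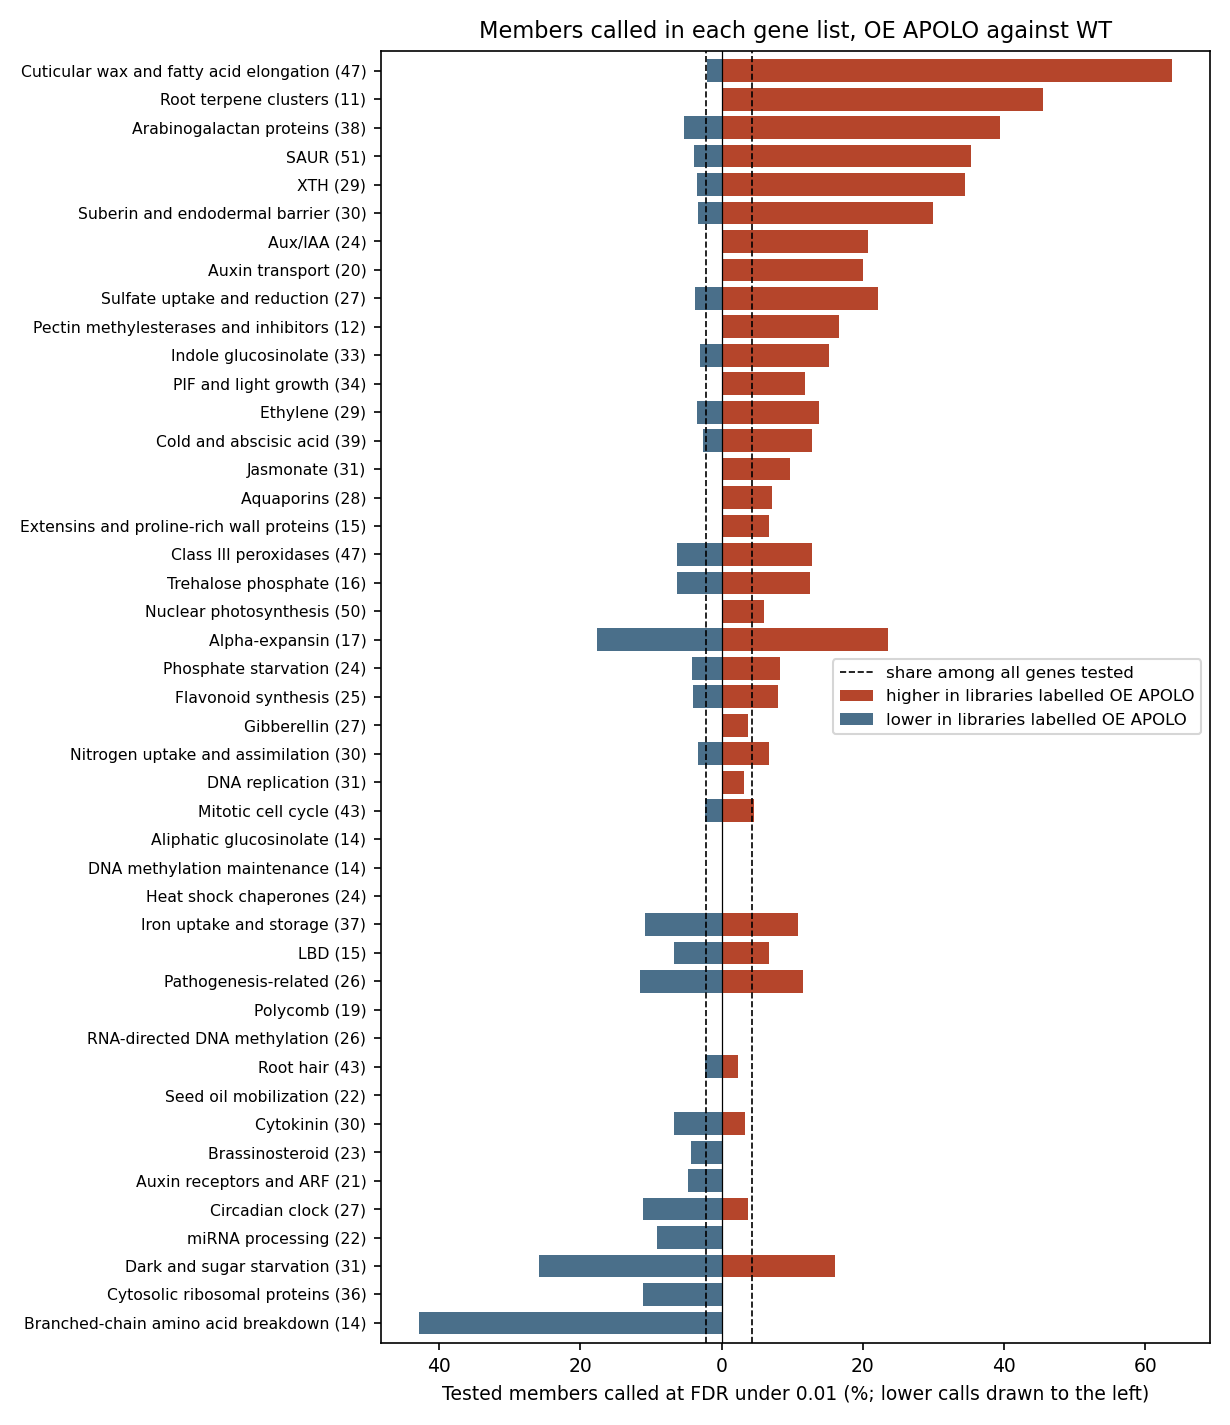
Share of the tested members of 45 gene lists (number tested in brackets) called higher (drawn to the right, %) or lower (drawn to the left, %) in the libraries labelled OE APOLO than in WT, at FDR under 0.01. Dashed lines mark the shares among all genes tested, 4.27% and 2.27%. Cuticular wax genes lie farthest to the right and branched-chain amino acid breakdown genes farthest to the left. The lists were chosen with earlier results of these data known.

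The genes with the smallest p-value in 5 of these lists (cuticular wax, suberin, XTH, SAUR and branched-chain amino acid breakdown) are shown first by the sequence before them, as examples of the lists described next. Each run holds the 250 bases before the annotated start in TAIR10.1, on the strand of the gene. Capitals mark matches to GAAGAA, named in the study as the box that APOLO may recognise, TGTCTC, an auxin response element, or CACGTG, the G-box, on either strand. The windows lie at chr4:160393-160642 (plus strand) for CYP86A2, chr5:7470078-7470327 (plus) for FAR1, chr3:8549787-8550036 (plus) for XTH16, chr5:5975088-5975337 (minus) for SAUR22 and chr1:3287837-3288086 (plus) for BCAT-2.
CYP86A2: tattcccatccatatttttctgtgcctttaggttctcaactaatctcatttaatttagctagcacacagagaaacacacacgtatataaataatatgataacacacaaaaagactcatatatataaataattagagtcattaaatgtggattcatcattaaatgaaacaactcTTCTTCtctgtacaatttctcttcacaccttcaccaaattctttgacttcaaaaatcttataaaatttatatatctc
FAR1: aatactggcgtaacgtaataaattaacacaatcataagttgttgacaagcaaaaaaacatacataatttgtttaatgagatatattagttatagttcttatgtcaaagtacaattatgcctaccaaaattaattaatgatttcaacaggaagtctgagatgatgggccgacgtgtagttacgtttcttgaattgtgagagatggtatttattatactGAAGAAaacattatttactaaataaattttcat
XTH16: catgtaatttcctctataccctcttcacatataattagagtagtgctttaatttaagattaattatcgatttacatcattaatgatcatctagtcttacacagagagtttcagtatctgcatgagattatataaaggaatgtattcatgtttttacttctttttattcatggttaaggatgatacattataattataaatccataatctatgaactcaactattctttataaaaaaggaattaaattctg
SAUR22: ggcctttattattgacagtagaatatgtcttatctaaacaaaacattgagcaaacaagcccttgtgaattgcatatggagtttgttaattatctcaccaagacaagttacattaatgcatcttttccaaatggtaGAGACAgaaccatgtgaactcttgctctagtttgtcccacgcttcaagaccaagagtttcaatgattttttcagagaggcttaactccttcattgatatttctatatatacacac
BCAT-2: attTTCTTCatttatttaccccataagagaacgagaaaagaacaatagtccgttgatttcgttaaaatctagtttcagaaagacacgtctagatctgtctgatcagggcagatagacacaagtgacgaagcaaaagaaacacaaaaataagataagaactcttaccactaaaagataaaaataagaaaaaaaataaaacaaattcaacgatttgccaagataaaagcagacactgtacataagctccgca

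GAAGAA was found once each before CYP86A2, FAR1 and BCAT-2, and TGTCTC once before SAUR22. The window before XTH16 held none of the 3 motifs. Among all 19885 windows of tested genes, 30.2% held GAAGAA, 10.6% TGTCTC and 7.35% CACGTG. Of the 854 higher genes, 27.5% held GAAGAA, 13.2% TGTCTC and 5.97% CACGTG, and of the 455 lower genes 29.5%, 10.8% and 6.81%. Of the 30 higher wax genes, 8 held GAAGAA, 1 TGTCTC and 0 CACGTG, and of the 18 higher SAUR genes 3, 4 and 0. Of the 15 higher arabinogalactan protein genes, 6 held GAAGAA, and of the 9 higher suberin genes 2 did. These matches are letters in a window and do not show binding.

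The surface lipid genes stood out. Of 47 tested genes of cuticular wax, cutin and fatty acid elongation (61 listed), 30 were higher, 1 was lower and 16 did not pass the test, and 43 of 47 had a positive log2 fold change. Their median log2 fold change was 0.56. The median over the 47 genes of the level relative to the mean of the 6 libraries was 0.12, 0.23 and 0.42 in libraries A, B and C labelled OE APOLO, against -0.28, -0.39 and -0.24 in WT A, B and C, on the log2 scale. OE APOLO A was thus the lowest of its group, and no library of one group reached the other. Without OE APOLO A the median was 0.66 and 37 members were higher.

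In fatty acid elongation, 11 of the 16 tested KCS genes, which encode the condensing enzymes that lengthen acyl chains, were higher and 0 were lower. KCS1 (AT1G01120) had 47.9, 53.0 and 61.5 CPM in the libraries labelled OE APOLO, against 27.5, 25.5 and 27.3 CPM in WT, a log2 fold change of 1.01 ± 0.091 (SE, FDR 7.78e-06). KCS6, which is the wax enzyme CER6, had 340, 381 and 464 CPM in the libraries labelled OE APOLO and 255, 229 and 276 CPM in WT. KCS8 (shared reads) rose by 0.93 and KCS20 by 0.80 on the log2 scale. CER2 (AT4G24510), which carries elongation to the longest wax chains, rose by 0.92 and its homolog CER26 (AT4G13840) by 0.77. Among the acyl-activating enzymes, LACS2 rose by 0.85 and LACS1 by 0.60. A gene is marked "shared reads" where fractions in its counts show that reads were divided with other features, which makes its own level uncertain.

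In cutin synthesis, the fatty acid hydroxylase CYP86A2 (AT4G00360) had 178, 216 and 249 CPM in the libraries labelled OE APOLO, against 101, 103 and 97.4 CPM in WT. All 3 libraries of the line lay far above the narrow WT range. Its mean was 215 ± 35.9 CPM in the libraries labelled OE APOLO and 100 ± 2.85 CPM in WT (SD, n = 3 each), a log2 fold change of 1.09 ± 0.098 (SE, FDR 7.78e-06). BDG1 (AT1G64670), an extracellular hydrolase needed for an intact cuticle, had 17.3, 20.4 and 19.6 CPM in the libraries labelled OE APOLO, against 6.04, 8.40 and 6.92 CPM in WT, and rose by 1.42. CYP86A4, of the same hydroxylase family, changed most in the list (2.02, FDR 0.0023) but at no more than 1.81 CPM in any library, and its call was lost with DESeq2 (adjusted p = 0.0109) and without OE APOLO C, WT A or WT C (FDR 0.0122 to 0.0181). The glycerol acyltransferases GPAT8 and GPAT4 rose by 0.76 and 0.56. For export, the GPI-anchored lipid transfer protein LTPG1 rose by 0.76 and the transporter ABCG11 by 0.72, and ABCG12 rose by 0.55, a call lost without WT A (FDR 0.0114) and WT B (FDR 0.0119). Of the regulators, MYB30 rose by 0.83 and MYB96 by 0.70, and the MYB96 call was lost without WT A (FDR 0.0107).

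The exception was CER1 (AT1G02205), the alkane-forming enzyme. It had 3.81, 1.78 and 3.1 CPM in the libraries labelled OE APOLO, against 11.9, 5.78 and 6.68 CPM in WT, and fell by 1.49 on the log2 scale (FDR 0.00257). WT A was the highest library, and the call was lost without it (FDR 0.0133) and without OE APOLO B (FDR 0.0127), as well as in a fit of the 6 libraries alone (FDR 0.011). CER3, the partner of CER1 in alkane formation, was by contrast higher, by 0.42 (FDR 0.00269), a call lost without OE APOLO C, WT B or WT C (FDR 0.0125, 0.0154 and 0.0143). GPAT6, MYB94, MYB16 and CER4 (shared reads) had log2 fold changes of 0.88, 0.42, 0.45 and 0.44 and did not pass the test.

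Genes of suberin and the endodermal barrier changed in part. Of 30 tested, 9 were higher and 1 was lower, with a median log2 fold change of 0.36. FAR1 (AT5G22500), a reductase that makes the fatty alcohols of suberin, had 38.6, 45.6 and 38.1 CPM in the libraries labelled OE APOLO, against 6.25, 12.7 and 7.07 CPM in WT. This was a 4.66-fold difference (log2 fold change 2.22 ± 0.19, SE, FDR 6.72e-06), with all libraries of both groups well apart. Its homologs FAR5 and FAR4 rose by 1.29 and 1.13, but both had shared reads, and the FAR4 call was lost without WT A (FDR 0.0134). The fatty acid hydroxylase CYP86A1 (shared reads) rose by 1.04 and the suberin transporter ABCG20 (AT3G53510) by 1.78, with 7.10, 5.62 and 8.96 CPM in the libraries labelled OE APOLO and 1.51, 2.55 and 2.18 CPM in WT. By contrast, 5 of 5 CASP genes, which organise the Casparian strip, and their regulator MYB36 did not pass the test, with log2 fold changes from -0.27 to 0.12. The gene of the cutinase CDEF1 (AT4G30140, shared reads) was lower, with 4.78, 4.40 and 7.02 CPM in the libraries labelled OE APOLO, against 42.0, 17.9 and 27.6 CPM in WT (log2 fold change -2.44, FDR 2.78e-05). The list level was highest in OE APOLO C (0.35), the library with the most root marker counts, against 0.03 in OE APOLO A and in B. The number of higher members was 4 without WT A, 7 without OE APOLO C and 10 without OE APOLO A, and the part of root content in these values was not tested.

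Other lipid genes outside the lists, chosen after their values were seen, moved likewise. TLL1 (AT1G45201), annotated as a triacylglycerol lipase-like gene, had 30.8, 37.2 and 34.8 CPM in the libraries labelled OE APOLO, against 11.1, 12.1 and 11.7 CPM in WT. GPAT3 rose by 1.29 and HCD1, a dehydratase annotated for acyl chains, by 0.89. Of 45 tested genes annotated as GDSL-like lipases, 12 were higher and 3 lower. Among them, AT4G18970 had 54.8, 72.1 and 51.8 CPM in the libraries labelled OE APOLO and 22.1, 25.5 and 24.3 CPM in WT, while AT5G55050 fell by 1.08.

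Of the epidermal regulators, the HD-ZIP factor PDF2 rose by 0.52 (FDR 0.00383), a call lost without WT A, WT B or WT C (FDR 0.0153, 0.0179 and 0.0187) and in a fit of the 6 libraries alone (FDR 0.0131). PDF1, a gene of the outer cell layer, had 89.9, 100 and 83.0 CPM in the libraries labelled OE APOLO, against 55.7, 50.9 and 41.3 CPM in WT, while HDG7, of the same factor class as PDF2, fell by 0.98. These epidermal genes thus did not all move in one direction.

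**Figure D2:**
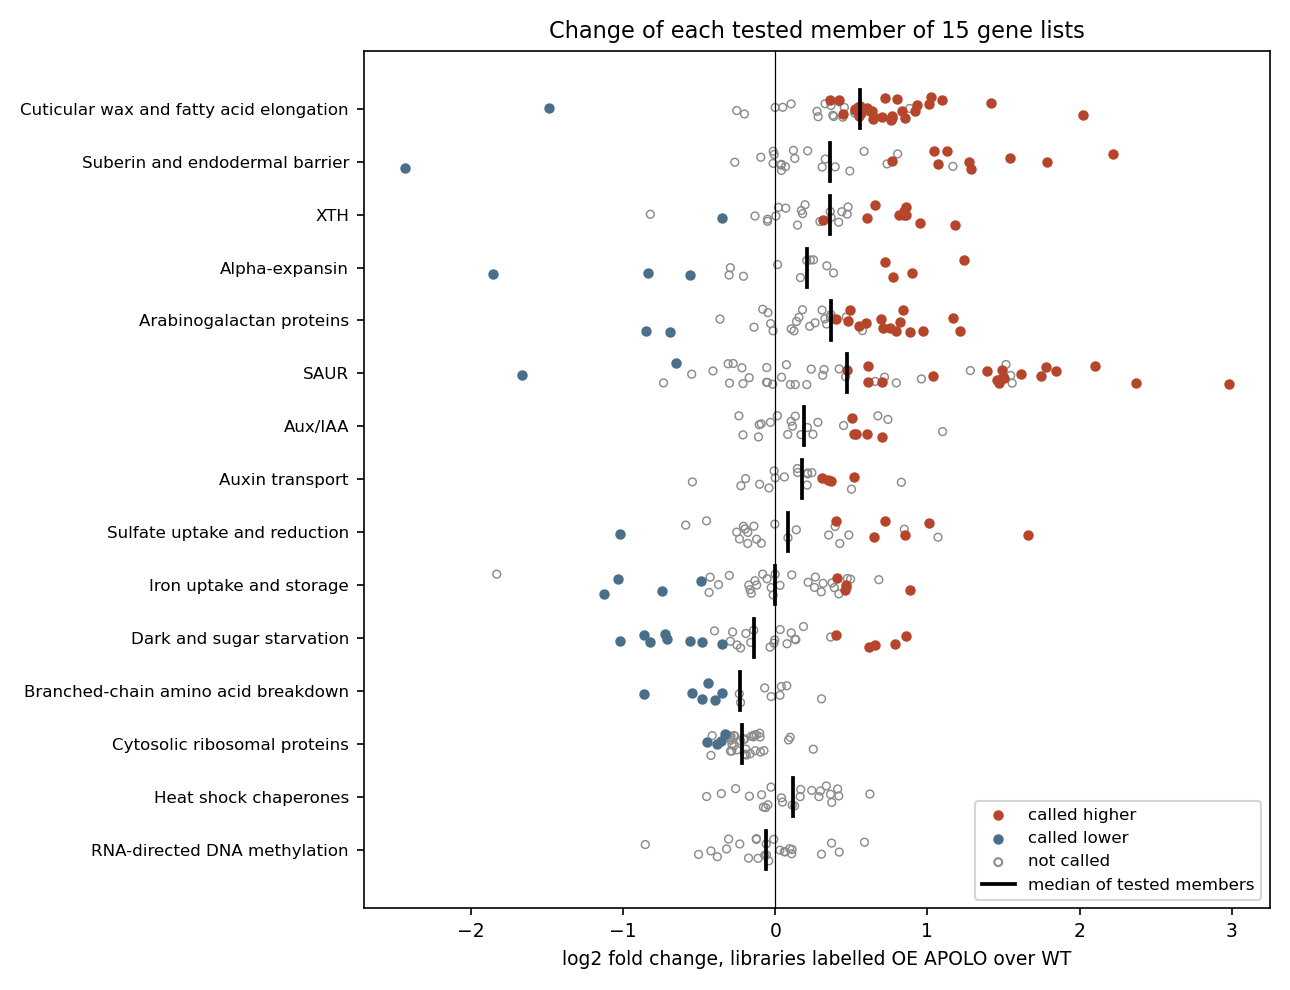
Log2 fold change (libraries labelled OE APOLO over WT) of each tested member of 15 gene lists, with filled points for called members and a black bar at the median of the tested members. Members of the cuticular wax list lie mostly right of 0 with a median of 0.56, whereas no heat shock chaperone and no gene of RNA-directed DNA methylation was called.

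Wall-loosening and wall glycoprotein genes formed a further group. Of 29 tested XTH genes, whose enzymes cut and rejoin xyloglucan, 10 were higher and 1 was lower (median log2 fold change 0.36). XTH15 (AT4G14130) had 194, 256 and 174 CPM in the libraries labelled OE APOLO, against 89.3, 98.7 and 87.5 CPM in WT, a log2 fold change of 1.18 ± 0.12 (SE, FDR 2.47e-05). XTH4 had 797, 870 and 801 CPM in the libraries labelled OE APOLO and 533, 508 and 524 CPM in WT. XTH16, XTH8, XTH7 and XTH9 rose by 0.86, 0.84, 0.95 and 0.81 (the last pair with shared reads). XTH31 was the lower member (-0.35, FDR 0.00724), a call lost in 7 of 14 alternatives, among them without each library except OE APOLO A.

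The alpha-expansins, which loosen the wall as it yields, were divided, with 4 of 17 tested genes higher and 3 lower. EXPA5 (AT3G29030) had 10.3, 13.3 and 11.1 CPM in the libraries labelled OE APOLO, against 4.74, 6.26 and 3.57 CPM in WT, and EXPA6, EXPA11 and EXPA8 rose by 0.90, 0.77 and 0.72. EXPA2 (AT5G05290), known for its role in germination, had 6.27, 1.85 and 2.07 CPM in the libraries labelled OE APOLO, against 14.4, 12.9 and 10.02 CPM in WT. OE APOLO A was the highest of its group, and the call (log2 fold change -1.86, FDR 0.00159) was lost without WT A (FDR 0.0104). EXPA9 fell by 0.56. EXPA15 fell by 0.84, a call lost without each library except OE APOLO A.

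Of 38 tested arabinogalactan protein genes, which encode cell-surface proteoglycans, 15 were higher and 2 were lower (median log2 fold change 0.36). The 3 libraries labelled OE APOLO were close together in this list (0.13, 0.18 and 0.16, against -0.27, -0.16 and -0.21 in WT). Among the fasciclin-like members, 8 of 14 FLA genes were higher and 0 were lower. AGP18 (AT4G37450) had 29.1, 34.7 and 27.1 CPM in the libraries labelled OE APOLO, against 13.2, 15.5 and 11.8 CPM in WT, and rose by 1.17 (FDR 1.50e-05). AGP12, AGP7, FLA9 (shared reads), FLA2 and FLA8 rose by 0.82, 0.79, 0.71, 0.60 and 0.55. The lower members were AGP31 (-0.69) and AGP30 (-0.85), with FDR of 0.0074 and 0.00747, and both calls were lost without each library except OE APOLO A.

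The wall and cytoskeleton were represented by other families too. Of 9 tested beta-tubulin genes with TUB symbols, 5 were higher and 0 were lower. TUB8 had 142, 148 and 151 CPM in the libraries labelled OE APOLO, against 96.6, 93.6 and 90.7 CPM in WT (log2 fold change 0.65, FDR 4.16e-05), and TUB7 rose by 0.50. Without OE APOLO B, OE APOLO C, WT A or WT B the number higher was 2 (TUB8 and TUB7), without WT C it was 3, and without OE APOLO A it was 6. The TUB family was picked for its share of calls, which is therefore only a description. The cellulose synthase gene CESA5 rose by 0.77, the xyloglucan synthase gene CSLC04 (shared reads) by 0.87 and ATCSLA09, of the mannan synthase family, by 1.21. PRP4, a proline-rich wall protein gene (shared reads), had 1194, 1330 and 1520 CPM in the libraries labelled OE APOLO, against 717, 671 and 730 CPM in WT. In contrast, PGAZAT, a polygalacturonase of abscission zones, had 22.6, 8.88 and 9.65 CPM in the libraries labelled OE APOLO and 76.8, 40.7 and 35.0 CPM in WT, and fell by 1.88. Of 43 tested root hair genes 1 was higher (SHV3) and 1 lower (LRL1), a share called of 4.65%, against 6.54% of all genes tested. Their list level was 0.50 in OE APOLO C and -0.30 in OE APOLO A.

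Part of the auxin-responsive SAUR genes was higher. Of 51 tested SAUR genes (80 listed), 18 were higher and 2 lower, with a median log2 fold change of 0.47. SAUR22 (AT5G18050) had 2.61, 3.18 and 2.41 CPM in the libraries labelled OE APOLO, against 0.288, 0.413 and 0.311 CPM in WT, where it was near the floor. The log2 fold change was 2.98 ± 0.30 (SE, FDR 2.03e-05). SAUR19 and SAUR20, which lie side by side with AT5G18030 on chromosome 5, rose by 2.37 and 1.49 but shared reads, and AT5G18030 rose by 1.85. SAUR23 and SAUR24 from the same stretch rose by 2.1 and 1.78, with each call lost in 3 alternatives. The lower members were AT2G21200 (shared reads) and AT4G00880, by 1.67 and 0.65 on the log2 scale. The AT2G21200 call was lost with DESeq2 (adjusted p = 0.0189) and without each library except OE APOLO A, and the AT4G00880 call in the fit of the 6 libraries (FDR 0.0126) and without OE APOLO C, WT A or WT C (FDR 0.0124 to 0.0242). The list was least raised in OE APOLO A (0.07, against 0.33 and 0.16 in B and C). It counted 10 higher members without OE APOLO B, 11 without WT A and 10 without WT C, and 11 where at least 10 counts were required in every library.

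Fewer of the Aux/IAA repressor genes were called. Of 24 tested, 5 were higher and 0 lower (median log2 fold change 0.19). SHY2 (IAA3, AT1G04240) had 34.5, 39.2 and 35.0 CPM in the libraries labelled OE APOLO, against 23.4, 22.1 and 21.4 CPM in WT, and rose by 0.70 (FDR 4.14e-05). AXR3 (IAA17), IAA2, IAA7 and ATAUX2-11 (IAA4) rose by 0.52, 0.60, 0.53 and 0.50. IAA19, a repressor gene induced during hypocotyl growth, had 4.18, 5.40 and 2.5 CPM in the libraries labelled OE APOLO, against 1.58, 1.93 and 2.18 CPM in WT. Its log2 fold change of 1.1 missed the threshold (FDR 0.0130), and it passed without OE APOLO C (FDR 0.00161), with no filter (FDR 0.00306), with at least 10 counts in every library (FDR 0.00989) and without organelle genes (FDR 0.00923). IAA29 had a log2 fold change of 0.74 (FDR 0.0197).

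Genes of auxin transport, synthesis and perception differed from each other. Among 20 tested transport genes 4 were higher: the efflux carriers PIN4, PIN7 and PIN3 rose by 0.52, 0.36 and 0.35, and ABCB21 by 0.31. PIN4 had 113, 121 and 132 CPM in the libraries labelled OE APOLO, against 83.2, 84.5 and 88.1 CPM in WT. The PIN3 call was lost without OE APOLO B, WT A or WT C (FDR 0.0105, 0.0283 and 0.0178), and the ABCB21 call without each of the 6 libraries. None of 7 tested synthesis genes of the TAA and YUC families passed the test, though all 7 log2 fold changes were positive (0.12 to 0.58), and YUC2 had an FDR of 0.288. TIR1, the auxin receptor gene, was 1 of 21 tested receptor and response factor genes called, and it was lower (-0.29, FDR 0.00948), and the call was lost without each library except WT B. Of 9 GH3 genes, which encode enzymes that conjugate hormones, DFL2 was the called one (0.32). Its call was lost with DESeq2 (adjusted p = 0.0142), in the fit of the 6 libraries (FDR 0.0101) and without each library except OE APOLO A. By product name, 12 tested genes were annotated as auxin-responsive GH3 family proteins, with 1 higher and 1 lower. IAGLU and UGT75B1 (shared reads), glucosyltransferases that act on auxin, fell by 0.77 and 0.92 and were chosen after their values were seen.

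Among growth regulators of light and warmth, 4 of 34 tested were higher and 0 lower. PIL6 (PIF5), a basic helix-loop-helix factor that promotes elongation, had 167, 184 and 177 CPM in the libraries labelled OE APOLO, against 124, 127 and 133 CPM in WT. HFR1 and HB-2 (HAT4), both induced in shade, rose by 0.73 and 0.79, with calls lost without WT C (FDR 0.0121) and without WT A (FDR 0.0123). PIF4 was higher by 0.30, a call lost without each library except OE APOLO A. None of 24 heat shock chaperones was called (median log2 fold change 0.12). No gene was called among 14 of DNA methylation maintenance, 26 of RNA-directed DNA methylation and 19 of the Polycomb group, where 6.54% of all genes were. VIM1 (shared reads) had 28.6, 90.6 and 36.1 CPM in the libraries labelled OE APOLO and 51.1, 13.1 and 20.16 CPM in WT, and the ranges overlapped. LHP1 (listed as TFL2) had an FDR of 0.405.

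**Figure D3:**
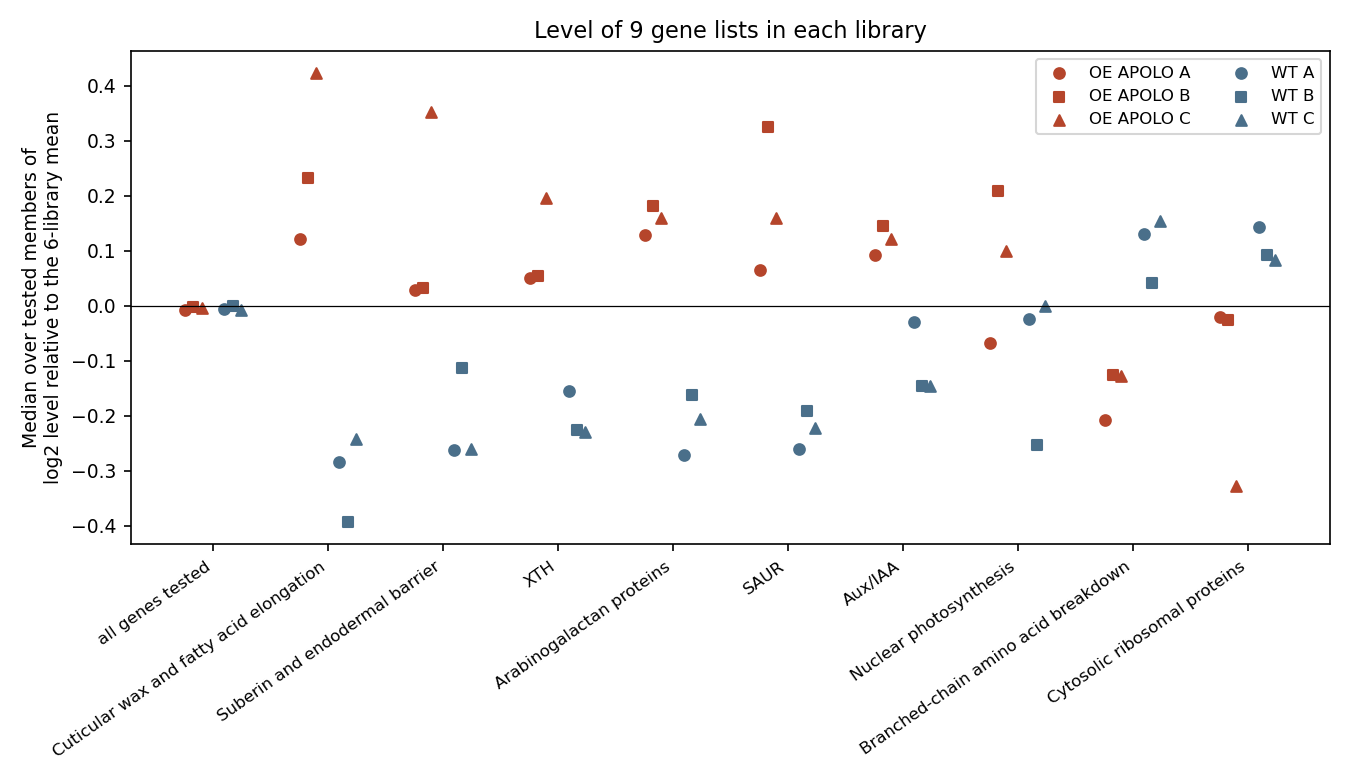
Level of 9 gene lists and of all genes tested in each library, as the median over the tested members of the log2 level relative to the mean of the 6 libraries (pseudocount 0.5 CPM). The 3 libraries labelled OE APOLO (red) lie above the 3 WT libraries (blue) in the wax, suberin, XTH, arabinogalactan, SAUR and Aux/IAA lists and below them in the amino acid breakdown and ribosomal protein lists, while photosynthesis genes overlap.

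Genes that plants induce in darkness and under sugar starvation were mixed. Of 31 tested, 8 were lower and 5 higher. The summed senescence markers ranged from 28.9 to 35.6 CPM in the libraries labelled OE APOLO and from 37.8 to 39.7 CPM in WT, and their part in these values was not tested. Among the lower ones were BCAT-2 and BCE2 of branched-chain amino acid breakdown. Of 14 tested genes of that route, 6 were lower and 0 higher (median log2 fold change -0.23). BCAT-2 (AT1G10070), the transaminase of the first step, had 309, 340 and 307 CPM in the libraries labelled OE APOLO, against 614, 561 and 563 CPM in WT. This was a log2 fold change of -0.86 ± 0.081 (SE, FDR 1.16e-05), far larger than the spread within either group. IVD, ETFQO and MCCA, which act further down the leucine route, fell by 0.55, 0.48 and 0.44 (all with shared reads). MCCB (shared reads) fell by 0.40, a call lost without WT A (FDR 0.0162) or WT C (FDR 0.012). BCE2 fell by 0.35, a call lost without each library except WT B. Without WT A or WT C 4 genes of the list were lower. Outside it, and chosen after their values were seen, the genes of other breakdown enzymes were also lower: AT4G33150 (lysine, -0.55), MGL (methionine, -0.56), THA1 (threonine, -0.51), PDS1 and HGO (tyrosine, -0.71 and -0.47).

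Other starvation genes fell as well. DIN2, a beta-glucosidase gene (shared reads), fell by 1.02, ATL8 by 0.82, SAG21 (shared reads) by 0.72 and SIS by 0.71. TPS11, of the trehalose-phosphate synthase family, had 200, 212 and 212 CPM in the libraries labelled OE APOLO, against 277, 288 and 315 CPM in WT. Against these stood AT2G44130 (KMD3) and AT3G59940 (KMD4, shared reads), which encode F-box proteins of cytokinin signalling and rose by 0.79 and 0.62, EXL5 (0.65) and XTR6 (0.86). The list therefore did not move one way.

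Nutrient genes changed in small sets. In sulfate assimilation, 6 of 27 tested genes were higher and 1 lower, 5 of the higher ones in activation and reduction of sulfate. APR2 (AT1G62180), an enzyme that reduces activated sulfate, had 34.4, 38.6 and 34.2 CPM in the libraries labelled OE APOLO, against 20.5, 20.23 and 18.7 CPM in WT. APR3 rose by 0.72 and APR1 by 1.01, and the ATP sulfurylase genes APS1 and APS3 by 0.40 and 0.65. Without WT A or OE APOLO C, where the calls of APS1 and APS3 were lost, 3 members were higher. The sixth was AT5G26220 (1.66, FDR 0.00853), at no more than 1.47 CPM in any library, a call lost with DESeq2 (adjusted p = 0.0232), in the fit of the 6 libraries, with the replicate block and without each of the 6 libraries, and the lower one was DIN2 (shared reads). NRT1.1 (AT1G12110), the nitrate transporter and sensor, had 126, 106 and 136 CPM in the libraries labelled OE APOLO, against 70.7, 74.9 and 74.3 CPM in WT (log2 fold change 0.74, FDR 4.31e-05). It was 1 of 2 higher genes among 30 of nitrogen uptake and assimilation (6.67%, against 4.27% of all genes tested). In that list 1 gene was lower (3.33%, against 2.27% of all genes tested), and the lowest log2 fold change was -1.53. NRT1.8 was lower, a call lost without OE APOLO B, OE APOLO C or WT A (FDR 0.0104, 0.0126 and 0.019).

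The iron list had 4 of 37 tested genes in each direction. The factor bHLH39 (shared reads), PYE, the ubiquitin ligase gene BTS and the reductase gene FRO3, all induced when iron is short, rose by 0.89, 0.46, 0.46 and 0.41. FER1, the gene of the iron store ferritin, had 50.6, 68.6 and 55.6 CPM in the libraries labelled OE APOLO, against 105, 89.3 and 98.0 CPM in WT, and fell by 0.74. AT3G25190, FRD3 and FRO6 (shared reads) fell by 1.04, 1.13 and 0.49. The calls of FER1, FRO3 and BTS were lost without WT A (FDR 0.0101, 0.0124 and 0.0172), and those of PYE, AT3G25190, FRD3 and FRO6 in 4 to 7 of 14 alternatives, each without OE APOLO B and without WT B and WT C among them. In phosphate starvation, RNS1, a secreted ribonuclease, had 3.36, 0.74 and 1.38 CPM in the libraries labelled OE APOLO, against 9.92, 5.85 and 6.84 CPM in WT, while the sulfolipid genes SQD2 and SQD1 rose by 0.47 and 0.35, the SQD1 call lost without each library except OE APOLO A.

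Defence and specialised metabolism showed a few large changes. Of 11 tested root terpene genes 5 were higher, among them both TPS-CIN genes, whose reads were shared. MRN1 (AT5G42600), the marneral synthase, had 8.67, 9.77 and 10.5 CPM in the libraries labelled OE APOLO and 1.87, 3.303 and 1.63 CPM in WT (log2 fold change 2.07 ± 0.25, SE, FDR 8.24e-05). THAS1, the thalianol synthase, rose by 0.81, a call lost without OE APOLO C (FDR 0.0102), WT A (FDR 0.0205) or WT C (FDR 0.0175). Of 26 tested pathogenesis-related genes, 3 were higher and 3 lower, with a highest log2 fold change of 2.23 and a median of 0.11. EARLI1 was higher, a call lost in the fit of the 6 libraries (log2 fold change 2.22, FDR 0.0101) and without WT A, WT B or WT C (FDR 0.011 to 0.0254). Of the lower genes, OSM34, an osmotin, had 16.5, 11.2 and 14.4 CPM in the libraries labelled OE APOLO, against 36.9, 25.7 and 26.497 CPM in WT. PR1 (shared reads) had 0.112, 0 and 0 CPM in the libraries labelled OE APOLO and 2.12, 0.688 and 0.777 CPM in WT, too few counts for a fold, and its call was lost without OE APOLO B (FDR 0.0116) or WT A (FDR 0.0107). In jasmonate synthesis AOS rose by 0.68, LOX6 by 0.57 and LOX2 by 1.66, the calls of LOX6 and LOX2 lost without WT A (FDR 0.0102 and 0.0112) and that of LOX2 also without WT C (FDR 0.0102). The cold-induced gene KIN2 (shared reads) rose by 0.98. In the myrosinase system, TGG2 (shared reads) rose by 1.43 and BGLU21 (shared reads) fell by 0.87.

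Genes in a row were also seen. On chromosome 4 around SNC1, a TIR-NBS-LRR immune receptor gene within a cluster of its relatives, SNC1 had 189, 191 and 197 CPM in the libraries labelled OE APOLO, against 274, 267 and 286 CPM in WT. SNC1, AT4G16892 and AT4G16910 (9500271 to 9511760) were adjacent among tested genes and all lower. AT4G16857, another member of this receptor class nearby, fell by 1.04. Reads of these genes were shared, so that single members are uncertain. On chromosome 5, the inhibitor-like gene AT5G46960 had 4.33, 1.48 and 1.38 CPM in the libraries labelled OE APOLO, against 31.6, 15.9 and 15.2 CPM in WT, and its neighbours AT5G46940 and AT5G46950 were lower too, the AT5G46950 call being lost in the fit of the 6 libraries (FDR 0.01) and without OE APOLO B, OE APOLO C or WT A (FDR 0.0134 to 0.0162). In all, 13 runs of at least 3 adjacent tested genes were called in one direction, 8 of them higher. They were chosen by their calls and are a description, and in 2 of the 13 (SNC1 and SAUR19 with their neighbours) every member kept its call without each library in turn.

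**Figure D4:**
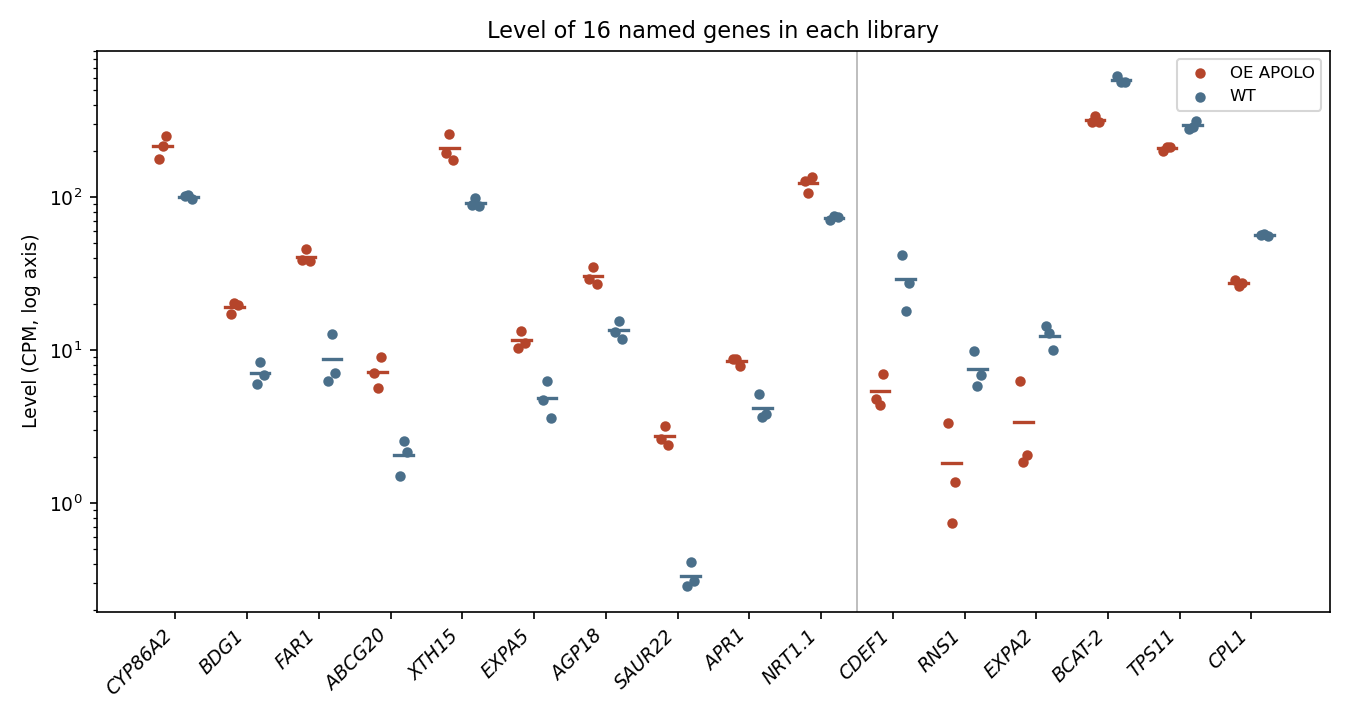
Level (CPM, log axis) of 16 named genes in each of the 3 libraries labelled OE APOLO (red, left) and the 3 WT libraries (blue, right), with bars at the means; 10 genes left of the grey line were higher and 6 right of it lower. In each of the 16 genes both groups lie apart, and CYP86A2 sits at 178 to 249 CPM, against 97.4 to 103 CPM in WT.

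Several other lists had at most 4 called members each, where 6.54% of all tested genes were called. Nuclear photosynthesis genes had 3 higher and 0 lower of 50, with PSAH2, LHCB6 and CAB3 (the last pair with shared reads) higher by 0.43, 0.44 and 0.42, calls lost without each library except OE APOLO A. Of the 50 genes, 44 had a positive log2 fold change (median 0.16). The level of this list was -0.07, 0.21 and 0.10 in OE APOLO A, B and C, and -0.02, -0.25 and -0.001 in WT, so that OE APOLO A lay among the WT libraries. Cytosolic ribosomal protein genes had 4 lower (11.1%, against 2.27% of all genes tested) and 0 higher of 36, and 33 of 36 had a negative log2 fold change (median -0.22). The list level was lowest in OE APOLO C (-0.33, against -0.02 and -0.03 in A and B), and 0 members were lower without OE APOLO C, WT A, WT B or WT C. Of 31 DNA replication genes 1 was called, and of 43 cell cycle genes CYCD1;1 and ICK1 were higher (0.56 and 0.60) and CYCB2;3 (shared reads) lower (-1.05). Of the 31 DNA replication genes, 26 had a positive log2 fold change. In the clock, LCL1 (RVE4, shared reads), PRR7 (shared reads) and TOC1 were lower (-0.53, -0.32 and -0.31) and TCP11 (CHE, shared reads) higher (0.38) of 27 tested (14.8% called). The calls of PRR7, TOC1 and TCP11 were lost in 6 or 7 of 14 alternatives, each without OE APOLO B, OE APOLO C, WT A and WT C among them. Of 22 genes of miRNA processing, CPL1, an RNA polymerase II phosphatase, had 28.7, 26.3 and 27.3 CPM in the libraries labelled OE APOLO, against 56.9, 57.0 and 55.2 CPM in WT.

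The lists of ethylene, cytokinin, brassinosteroid and gibberellin had between 1 and 5 calls each. The share called was 4.35% for brassinosteroid and 3.7% for gibberellin, below the 6.54% of all genes tested. The share was above that background for cytokinin and, at 17.2%, for ethylene. In the ethylene list, RAV2, TEM1 and RAV1, of the EDF group of repressors, rose by 0.74, 0.56 and 0.47, and the receptor gene ERS1 fell by 0.44, of 29 tested. ACS11 was higher too (log2 fold change 1.02). Its call was lost with DESeq2 (adjusted p = 0.0488), in the fit of the 6 libraries, with the replicate block and without each library except OE APOLO A. In the cytokinin list, LOG1, an activating enzyme, rose by 0.61, while the synthesis gene IPT3 fell by 0.91 (call lost without WT A, FDR 0.0104) and the response regulator gene ARR4 by 0.36 (call lost without each of the 6 libraries), of 30 tested. Of 23 brassinosteroid genes DOGT1 (shared reads), an inactivating glucosyltransferase, was called (-0.74), and of 27 gibberellin genes AT5G14920 was (0.46, call lost without each library except OE APOLO A). None of 22 seed oil genes and none of 8 seed storage genes passed the test, although the seed storage genes had a level of 1.07 in OE APOLO A, -0.55 in B and -1.09 in C, against -0.93, 0.56 and -0.47 in WT A, B and C.

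Over the whole comparison, QQS (AT3G30720), a species-specific gene of carbon and nitrogen allocation, changed most among the higher genes with a mean of at least 2 CPM (log2 fold change 3.86), followed by CML41, a calmodulin-like gene. CML41 had 12.7, 9.99 and 7.24 CPM in the libraries labelled OE APOLO, against 0.719, 2.13 and 1.63 CPM in WT. Among the lower genes, AT1G29100 had 0.598, 0.222 and 0.259 CPM in the libraries labelled OE APOLO and 5.39, 4.96 and 3.03 CPM in WT, and its neighbour AT1G29090, a cysteine proteinase gene, had 65.6, 23.2 and 35.4 CPM in the libraries labelled OE APOLO and 286, 134 and 149 CPM in WT. Of the 1309 called genes, 1266 were protein-coding, and of 253 tested lncRNA genes 16 were lower (6.32%, against 2.27% of all genes tested) and 0 higher. Calls near the threshold were fragile: of 327 called genes singled out by name or list (those beside APOLO not counted), 200 kept their call in every alternative that could test them (other thresholds aside), and 127 lost it in at least 1. None with an FDR above 0.00176 kept it throughout, and no lost call had an FDR over 0.0713.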

How the data were processed

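RNA was taken from whole 4-day-old seedlings with 3 biological replicates per genotype, and stranded mRNA libraries were sequenced from one end. Per the labels and the study's methods, the authors trimmed reads with Trimmomatic 0.36, aligned them with STAR 2.5.2b to TAIR10 and counted them with featureCounts (Subread 1.6.5) on Araport11. The deposited values are estimated counts (expected counts), since reads shared by features were divided and 5732 tested genes hold a fraction. They were rounded for tests. Of 69383 rows, 38194 gene rows were kept and transposable element rows left out.

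Genes passing filterByExpr were tested with edgeR 4.0.16 (TMM, quasi-likelihood, R 4.3.3) in 1 fit of all 9 libraries, and called at a Benjamini-Hochberg FDR under 0.01. SE is the absolute log2 fold change over the square root of F. CPM used unrounded counts. Alternatives were DESeq2 1.42.0, other normalizations and filters, other thresholds, a fit of the 6 libraries, a replicate block, removal of organelle genes and leaving out each library. In a check on simulated counts for this comparison (19719 genes), 79 of 100 genes changed by a log2 fold of 1 and 94 of 100 changed by 2 were recovered, with 2 false calls. The changed genes were drawn from those above 1 CPM in WT, so the check does not cover lower ones. Counts were simulated independently for each gene, without variation that genes of a library share, so its false calls do not carry over to the real libraries.

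The gene lists and members were chosen with earlier results of these data known. Genes named were up to 6 called members per list and direction by p-value, preset members, up to 4 called members of symbol families, the 10 smallest p-values and the 10 largest changes per direction (mean of at least 2 CPM over the 6 libraries), and the genes beside APOLO. Any other gene was named after its values were seen. Names and promoters came from RefSeq (TAIR10.1).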

Additional observations from a re-analysis of the deposited data

How the results depend on the processing

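The called genes numbered 2658 (1558 higher, 1100 lower) at an FDR under 0.05, and 252 (142 higher, 110 lower) with a log2 fold change of at least 1 in either direction. With DESeq2 they were 1413, with a fit of the 6 libraries 920, of which 291 were lower. With that fold minimum, 5 wax, 1 XTH, 2 arabinogalactan protein and 2 sulfate genes were higher and 1 dark and sugar starvation gene was lower. SAUR genes called higher numbered 11 with at least 10 counts in every library. Leaving out 1 library gave 639 to 1706 calls, 456 to 1059 higher and 183 to 647 lower. Higher members then ranged from 22 to 37 for wax, 10 to 20 for SAUR, 4 to 10 for suberin, 7 to 11 for XTH, 13 to 17 for arabinogalactan proteins and 3 to 6 for sulfate, and lower members from 6 to 8 for dark and sugar starvation. The cause of these differences was not tested. No named gene changed direction.

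With the replicate letter as a block, 1256 genes were called. Deviations of libraries with the same letter correlated at -0.141 (A), -0.279 (B) and 0.146 (C). OE APOLO C correlated best with WT C, whereas OE APOLO A and B correlated best with another letter. Deviations from the mean of 3 libraries depend on each other, so these correlations cannot decide whether the letters pair the samples. Across groups, the highest correlation was 0.35, between OE APOLO A and WT B. Depth limits genes near 3 counts, and 3 libraries per group limit small changes.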

Other observations

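Some groups outside the lists were picked by their calls and are given as values only. Of 23 tested CRK genes, which encode cysteine-rich receptor-like kinases, 7 were higher and 0 lower. Of 9 tested RTFL genes, which encode small peptides, 3 were higher and 0 lower, and of 10 BSK genes, which encode brassinosteroid-signalling kinases, 3 were higher and 0 lower. Of 12 BGAL genes, which encode beta-galactosidases, 1 was higher and 2 were lower. Without WT A, 2 CRK, 2 RTFL and 0 BSK genes were higher and 0 BGAL genes lower. Without WT C these were 4, 1, 0 and 0, without OE APOLO B 4, 1, 1 and 0, without WT B 3, 2, 2 and 2, and without OE APOLO C 6, 3, 1 and 2.

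Among the 13 runs of adjacent called genes, the longest held NSP1, NSP4, PBP1 and JAL31 on chromosome 3 (5566083 to 5583258), all higher and all with shared reads. NSP1 and NSP4 are annotated as nitrile specifier proteins of glucosinolate breakdown. The NSP4 call was lost in the fit of the 6 libraries (FDR 0.016) and without OE APOLO C, WT A, WT B or WT C (FDR 0.0113 to 0.0431), and the NSP1 call without WT A (FDR 0.0129). A run on chromosome 1 (19963047 to 19966952) held MRD1, AT1G07887 and HEI10 (shared reads), all lower, but the AT1G07887 call was lost with DESeq2 (adjusted p = 0.0383), in the fit of the 6 libraries, with the replicate block and without each of the 6 libraries.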
